A study of Mus musculus with 16 samples.

Results

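Aminoacyl-tRNA synthetases attach each amino acid to its tRNA. The messenger RNAs of 36 of these enzymes were measured in brown adipose tissue (BAT), of which 20 encode cytosolic enzymes and 16 encode mitochondrial enzymes whose symbols end in 2. The genes were chosen by name. They were 36 of 51060 genes to which transcripts could be joined, and all 36 were among the 15632 genes with enough counts to be tested.

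The 16 mice were 7 weeks old and on a C57Bl/6J background. The OPA1 BKO mice, labelled KO, carried 2 floxed *Opa1* alleles and a Cre transgene driven by the *Ucp1* promoter, and the WT mice carried the same floxed alleles without Cre. Each genotype had 4 females and 4 males, housed at room temperature on chow. Because the *Ucp1* promoter is active in thermogenic adipocytes, other cells of the tissue keep *Opa1*, and in bulk tissue fewer cells of a type cannot be told apart from less RNA per cell. The labels give no pairs, litters or dates.

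In the cytosol, charged tRNAs feed the ribosomes that translate nuclear mRNAs, and several of the enzymes sit together in a multisynthetase complex held by scaffold proteins. Mitochondria translate the few proteins of their own genome with a separate set of nuclear-encoded synthetases. *Gars* and *Kars* are exceptions, since each of these genes encodes both the cytosolic and the mitochondrial enzyme. The transcription factor ATF4, which acts in the integrated stress response, is known to bind C/EBP-ATF elements of several cytosolic synthetase genes.

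*Opa1*, the targeted gene, had 152, 180 and 210 CPM (lowest, median and highest of the 8 WT mice) and 17.9, 24.6 and 36.9 CPM in the 8 OPA1 BKO mice and the genotypes did not overlap. CPM are counts scaled to a common library size after TMM normalization, which sets each mouse so that most genes do not move on balance. *Atf4* rose by 1.26 on the log2 scale (SE 0.11, adjusted p = 4.57e-07) and *Ddit3*, which encodes CHOP, by 2.79 (SE 0.12, adjusted p = 1.97e-10). Adjusted p-values come from edgeR (quasi-likelihood test, model of genotype and sex) with Benjamini-Hochberg correction across the 15632 genes, and a gene was called at an adjusted p under 0.05. Total estimated counts per mouse were 13607283 to 23114534. Of 7 brown adipocyte markers, all present in every mouse, 1 rose (*Elovl3*, by 2.99) and 3 fell (*Cidea*, *Adipoq* and *Fabp4*). *Ucp1* was not called (log2 -0.46, adjusted p = 0.0738), and neither were *Ppargc1a* and *Dio2*. The sum of these markers ranged between 13400 and 20600 CPM for WT mice, and between 7640 and 12900 CPM for the OPA1 BKO group. *Fabp4* was the most abundant of them, with a median of 8590 CPM for WT mice against 4680 CPM for the OPA1 BKO group. Of 5 skeletal muscle markers 0 were called, and their sum was 16.6 to 5210 CPM in WT and 2.81 to 12600 CPM in OPA1 BKO mice. Of 5 macrophage markers 4 rose, and their sum was 32.7 to 52.1 and 43.9 to 115 CPM. Of 5 lymphocyte markers 3 fell, and their sum was low, at 3.02 to 6.64 CPM in WT and 1.43 to 3.26 CPM in OPA1 BKO mice. Further, 3 of 4 endothelial markers fell while 3 of 4 fibroblast markers rose. The part of these cells in the results was not tested, beyond the fit without the mice of high muscle signal given with the counts.

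After TMM scaling the cytosolic enzymes were broadly higher in OPA1 BKO mice and the mitochondrial enzymes were not. Of the 20 cytosolic genes, 15 rose, 1 fell and 4 did not pass the test, with a median log2 fold change of 0.67. Of the 16 mitochondrial genes, 3 rose, 3 fell and 10 did not pass, with a median of -0.074. The background was high in this comparison, since 20.8% of all tested genes rose and 20.2% fell, with a median of 0.010. In the 8 mice with at most 1000 CPM of muscle markers, 14 cytosolic genes rose and 1 fell, and 1 mitochondrial gene rose and 1 fell. Of the 15788 genes tested in that fit, 1816 rose and 1627 fell.

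**Figure D1:**
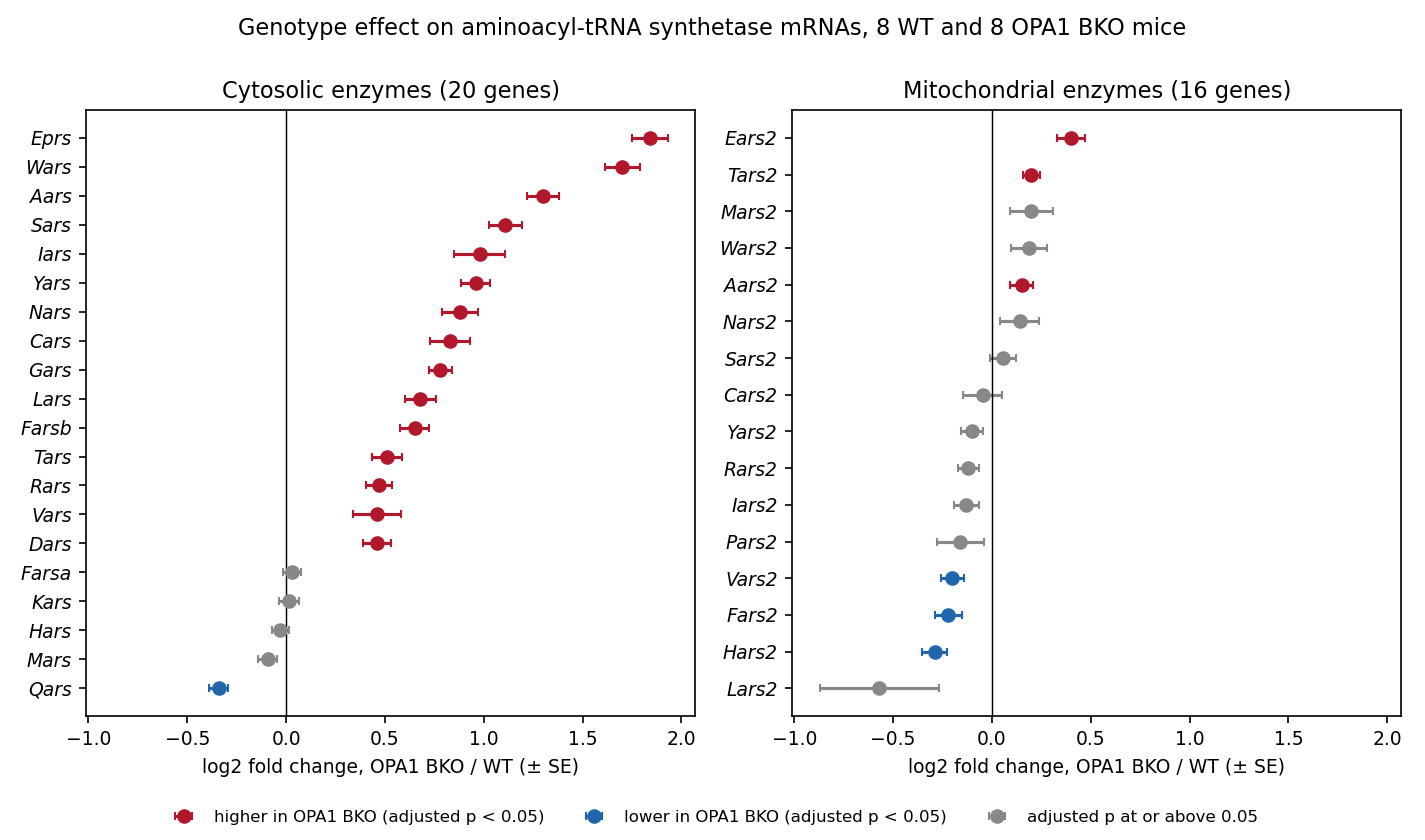
Log2 fold change of each gene in OPA1 BKO against WT mice (points, 8 mice each) with its standard error (bars), cytosolic enzymes on the left and mitochondrial enzymes on the right. Cytosolic values run from -0.34 for Qars to 1.84 for Eprs, while the mitochondrial values run from -0.57 for Lars2 to 0.40 for Ears2.

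Added over the 20 cytosolic genes, the level was 1076, 1102 and 1175 CPM (lowest, median and highest) in WT and 1658, 2016 and 2224 CPM in OPA1 BKO mice. The median rose 1.83-fold and the genotypes did not overlap. Added over the mitochondrial genes other than *Lars2*, the level was 546.5, 577.2 and 649.2 CPM in WT and 534.6, 550.0 and 599.1 CPM in OPA1 BKO mice, and the genotypes overlapped. *Lars2* is kept apart because of the transcript described further on.

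For 14 of the 20 cytosolic genes, which are the 15 that rose apart from *Vars*, all OPA1 BKO values exceeded all WT values, as in 5.07% of all tested genes. For *Qars* all OPA1 BKO values lay under all WT values, as in 4.89% of all tested genes. Among the mitochondrial genes only *Ears2* had no overlap, with OPA1 BKO mice above.

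**Figure D2:**
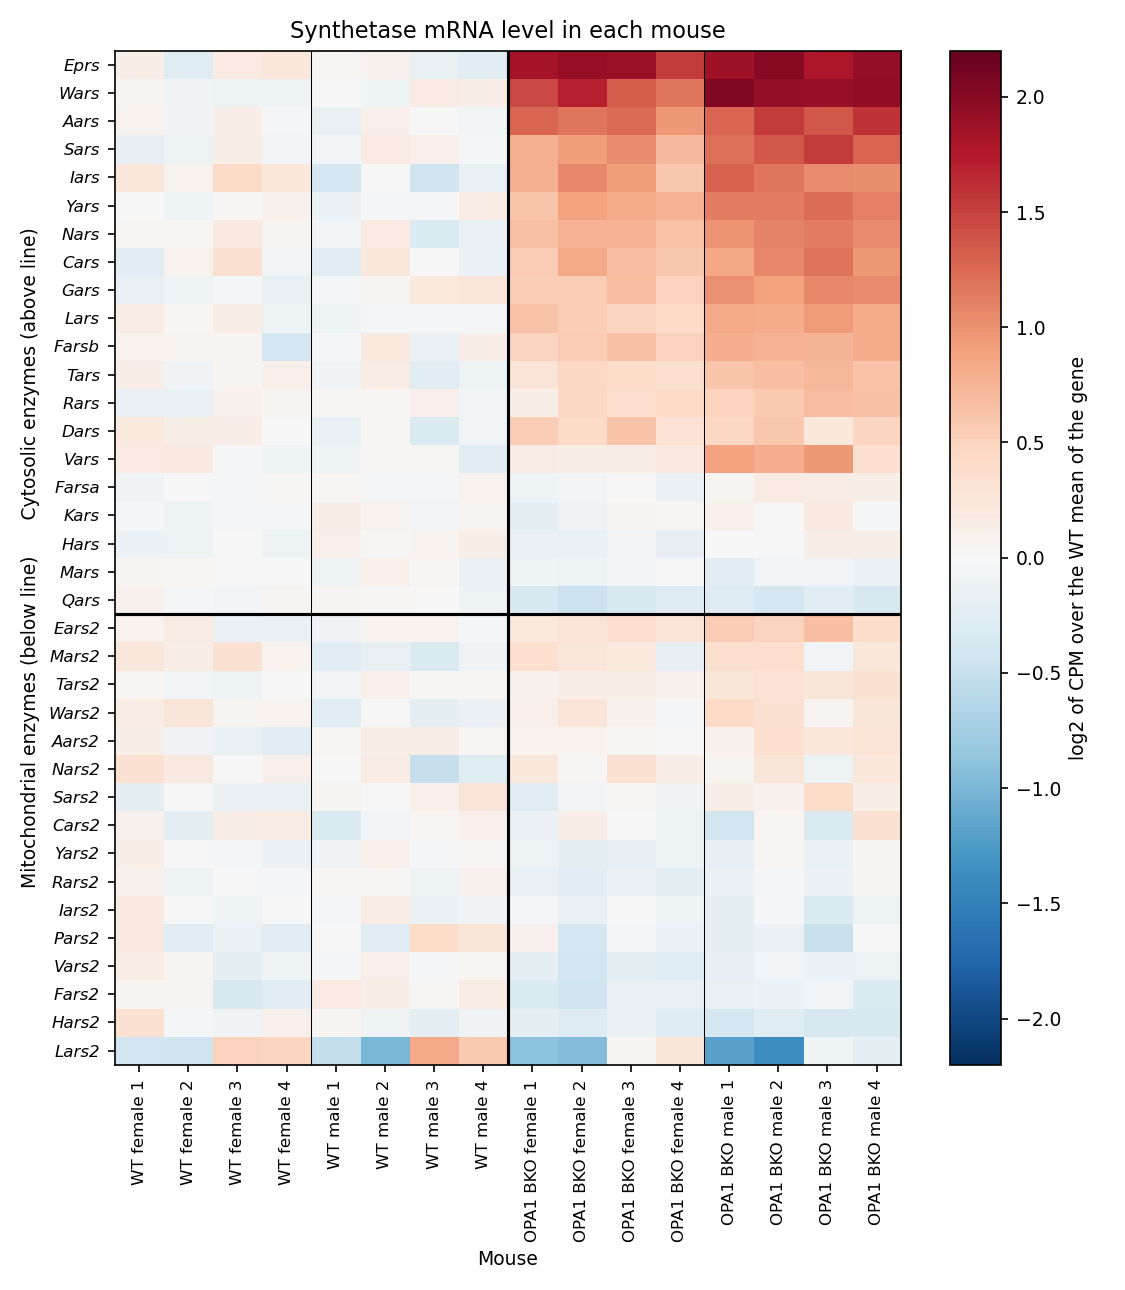
Level of each gene (rows) in each mouse (columns) as log2 of its CPM over the mean of the 8 WT mice, red for higher and blue for lower. The 8 OPA1 BKO columns are red from Eprs to Dars in the upper block, the OPA1 BKO males more deeply than the females for most rows, and the Lars2 row is split by mice 1 and 2 against 3 and 4 in every group, numbers that only name the mice.

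The largest increase was in *Eprs*, a single gene on chromosome 1 (chr1:185363044-185428360, plus strand, mm10) whose protein charges both glutamate and proline tRNAs. It had 73.1, 91.3 and 104 CPM in WT and 253, 320 and 351 CPM in OPA1 BKO mice, a 3.57-fold increase (log2 1.84, SE 0.091, adjusted p = 4.66e-10). *Wars*, the tryptophan enzyme (chr12:108860030-108894174, minus strand), had 44.0, 46.8 and 54.0 CPM in WT and 108, 169 and 197 CPM in OPA1 BKO mice (log2 1.70, SE 0.088, adjusted p = 7.36e-10). For *Wars* the genotypes did not overlap, and the 4 OPA1 BKO males were all above the 4 OPA1 BKO females.

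*Aars*, which charges alanine, had 73.8, 81.4 and 90.9 CPM in WT and 160, 199 and 247 CPM in OPA1 BKO mice (log2 1.30, SE 0.079, adjusted p = 4.37e-09). *Sars*, the serine enzyme, had 73.2, 81.0 and 94.3 CPM against 136, 182 and 243 CPM (log2 1.11, SE 0.085, adjusted p = 6.73e-08). The same enzyme also loads serine onto the tRNA for selenocysteine. *Iars*, the isoleucine enzyme, had 24.8, 34.4 and 44.8 CPM against 50.8, 68.6 and 82.2 CPM (log2 0.98, SE 0.13, adjusted p = 1.92e-05). *Yars*, the tyrosine enzyme, had 28.4, 31 and 34.9 CPM against 47.8, 62.7 and 73.1 CPM (log2 0.96, SE 0.073, adjusted p = 6.24e-08). In none of these did a WT mouse reach an OPA1 BKO mouse. Of the 31-base words in *Aars* transcripts, 14.4% also occur in other genes, mainly its overlapping neighbour *Exosc6*, and for *Iars* the share was 14.7%, mainly with *Gm4849*, so their counts could be divided between genes.

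The other increases were smaller. *Nars* (asparagine) rose by 0.88 on the log2 scale, *Cars* (cysteine) by 0.83, *Gars* (glycine) by 0.78, *Lars* (leucine) by 0.68 and *Farsb*, the beta subunit of the phenylalanine enzyme, by 0.65. *Tars* (threonine) rose by 0.51, *Rars* (arginine) by 0.47, and both *Dars* (aspartate) and *Vars* (valine) by 0.46. The SE of these 9 values lay between 0.059 and 0.12, and their adjusted p-values between 6.24e-08 for *Gars* and 0.00644 for *Vars*. *Vars* was the one of them whose genotypes overlapped, with 31 to 41.7 CPM in WT and 40.0 to 70.9 CPM in OPA1 BKO animals, where the 4 females had 40.0 to 41.8 CPM and the 4 males 46.8 to 70.9 CPM.

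In 5 cytosolic genes no increase was called. *Qars*, the glutamine enzyme (chr9:108507706-108515941, plus strand), had 67.5, 73.5 and 77.9 CPM in WT and 52.8, 57.7 and 61.9 CPM in OPA1 BKO mice and fell by 0.34 on the log2 scale (SE 0.048, adjusted p = 4.61e-05). *Mars*, the methionine enzyme, had 64.8, 72.6 and 77.7 CPM against 61.1, 68.0 and 71.0 CPM (log2 -0.092, SE 0.048, adjusted p = 0.138). *Hars*, the histidine enzyme, had 40.7, 45.2 and 48.7 CPM against 39.5, 43.7 and 48.9 CPM (log2 -0.030, SE 0.043, adjusted p = 0.6). *Kars*, the lysine enzyme of both compartments, had a log2 value of 0.014 (SE 0.052, adjusted p = 0.855), while *Gars*, the other gene with both products, rose. The *Mars* gene overlaps *Ddit3* on the other strand, and 1.24% of its words were shared with other genes.

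These directions hold relative to TMM scaling. Of the counts, the mitochondrial genome took 23.3% to 30.5% in the WT group and 4.44% to 9.02% in the OPA1 BKO group. Scaled to total counts alone, the median gene stood 0.57 higher in OPA1 BKO mice on the log2 scale, and *Farsa*, *Kars*, *Hars* and *Mars* came out higher by 0.47 to 0.58 and *Qars* by 0.22. Under that scaling 15 of the 16 mitochondrial genes also came out higher, and 96.7% of all called genes were higher, where TMM gave 3255 higher and 3157 lower. The difference between the medians of the cytosolic and the mitochondrial genes, which was 0.74, was 0.75 under that scaling.

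The phenylalanine enzyme is built of 2 different subunits, encoded on separate chromosomes by *Farsa* (alpha, chr8:84856989-84869257) and *Farsb* (beta, chr1:78417975-78488897). *Farsa* had 26.4, 27.8 and 29.3 CPM in WT and 25.3, 28.4 and 31.6 CPM in OPA1 BKO mice (log2 0.030, SE 0.048, adjusted p = 0.65), so the genotypes overlapped. *Farsb* had 33.2, 45.5 and 50.8 CPM against 61.1, 70.8 and 76.9 CPM (log2 0.65, SE 0.073, adjusted p = 4.07e-06), and here they did not. In TPM, which allow for transcript length, the log2 ratio of *Farsb* to *Farsa* was 0.56 ± 0.18 in WT and 1.22 ± 0.076 in OPA1 BKO mice (SD, n = 8 per genotype), with ranges of 0.19 to 0.79 and 1.08 to 1.30. The ratio within a mouse does not depend on the scaling between mice. Of the words in *Farsb* transcripts, 8.46% were shared, mainly with *Sgpp2* on the other strand.

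The mRNAs of the multisynthetase complex did not move as 1 unit. Of its 8 synthetase genes, *Eprs*, *Iars*, *Lars*, *Rars* and *Dars* rose, *Qars* fell, and *Kars* and *Mars* did not pass the test, with a median log2 fold change of 0.47. Of the 12 cytosolic genes outside the complex 10 rose and 0 fell, with a median of 0.81. Of all tested genes 20.8% rose and 20.2% fell. The 3 scaffold genes all rose in the fit over both sexes. Taken by sex, 0 of them were called in females and 2 were called higher in males, beside 8.96% and 17.9% of all tested genes. *Aimp2* had 4.71, 8.25 and 10.3 CPM in WT and 7.73, 12.4 and 22.5 CPM in OPA1 BKO mice (log2 0.75, SE 0.18, adjusted p = 0.00391). *Eef1e1* rose by 0.52 (SE 0.15, adjusted p = 0.0134) and *Aimp1* by 0.23 (SE 0.069, adjusted p = 0.0134), and for all 3 the genotypes overlapped.

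RefSeq promoters from 250 bases before to 50 bases after the start on build GRCm38.p6 were matched to 27 of the 36 genes, 13 cytosolic and 14 mitochondrial. The C/EBP-ATF element TGATGNAA was searched on both strands and was present in 5 of the 13 cytosolic promoters (*Aars*, *Gars*, *Iars*, *Tars*, *Yars*) and in 0 of the 14 mitochondrial promoters, against 4.51% of all 27025 genes with a promoter in the table. The element of NRF1, a factor known for its role at genes of mitochondrial proteins, was searched as GCGCATGC and was present in 0 cytosolic and 3 mitochondrial promoters (*Rars2*, *Vars2*, *Wars2*), against 3.05% of all genes. The ETS element CCGGAAG was present in 5 cytosolic and 4 mitochondrial promoters, against 9.93% of all genes. The 3 matched promoters whose element lay before the start are shown for each of the first 2 elements, 5′ to 3′ on the strand of the gene, with the element in capitals as it reads on that strand.
Aars, chr8:111033710-111033757, plus strand, 112 bases before the start: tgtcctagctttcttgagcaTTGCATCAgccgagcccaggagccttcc
Gars, chr6:55037951-55037998, plus strand, 30 bases before the start: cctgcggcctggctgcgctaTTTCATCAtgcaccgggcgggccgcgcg
Tars, chr15:11399659-11399693, minus strand, 15 bases before the start: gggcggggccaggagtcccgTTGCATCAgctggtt
Rars2, chr4:34614886-34614933, plus strand, 51 bases before the start: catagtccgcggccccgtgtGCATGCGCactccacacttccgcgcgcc
Vars2, chr17:35667611-35667658, minus strand, 46 bases before the start: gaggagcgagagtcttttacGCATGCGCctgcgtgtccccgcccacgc
Wars2, chr3:99141006-99141053, plus strand, 64 bases before the start: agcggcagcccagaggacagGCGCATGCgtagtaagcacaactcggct

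The 5 cytosolic genes with TGATGNAA in this window all rose, with log2 fold changes of 0.51 to 1.30. Of the 8 matched cytosolic genes without it 4 rose, 1 fell and 3 did not pass the test, from -0.34 for *Qars* to 1.84 for *Eprs*, so the largest increase was in a gene without these letters in its window. Of the 3 mitochondrial genes with GCGCATGC, *Vars2* fell and *Rars2* and *Wars2* did not pass the test. The cytosolic genes *Cars*, *Hars*, *Lars*, *Nars*, *Rars*, *Vars* and *Wars* had no matched promoter and are not in this comparison. All of these but *Hars* rose. A match of letters is a description and is not a bound site.

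Among the mitochondrial enzymes the changes were small. *Ears2*, the glutamate enzyme, had 9.25, 10.3 and 11.4 CPM in WT and 11.8, 13.3 and 16.2 CPM in OPA1 BKO mice (log2 0.40, SE 0.073, adjusted p = 0.000392). *Tars2*, for threonine, had 43.4, 47.4 and 51.1 CPM against 50.1, 54.3 and 59.7 CPM (log2 0.20, SE 0.044, adjusted p = 0.00165). *Aars2*, for alanine, rose by 0.15 (SE 0.057, adjusted p = 0.047), and leaving out a single mouse ended this call for 14 of the 16 mice. *Mars2*, for methionine, the least abundant of the 36 in TPM, had 7.02, 8.75 and 11 CPM against 7.71, 10.4 and 11.3 CPM (log2 0.20, SE 0.11, adjusted p = 0.149).

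*Hars2*, for histidine, had 41.7, 45.7 and 60.3 CPM in WT and 36.6, 39.0 and 43.1 CPM in OPA1 BKO mice and fell by 0.29 on the log2 scale (SE 0.062, adjusted p = 0.00155). *Fars2*, for phenylalanine, had 48.9, 64.2 and 69.8 CPM against 45.7, 55.2 and 59.2 CPM and fell by 0.22 (SE 0.069, adjusted p = 0.0188). *Vars2*, for valine, fell by 0.20 (SE 0.059, adjusted p = 0.0124). The genotypes overlapped for all 3. Scaled to *Tbp* in place of TMM, none of them was called (adjusted p from edgeR 0.094, 0.372 and 0.401 for *Hars2*, *Fars2* and *Vars2*). *Fars2* and *Vars2* were also not called without a filter on low counts (adjusted p from edgeR 0.129 and 0.152). Neither was called in the 8 mice of low muscle signal (adjusted p from edgeR 0.151 and 0.291). The remaining genes did not pass the test, and their log2 values were 0.19 for *Wars2*, 0.14 for *Nars2*, 0.056 for *Sars2*, -0.047 for *Cars2*, -0.10 for *Yars2*, -0.12 for *Rars2*, -0.13 for *Iars2* and -0.16 for *Pars2*. *Hars* and *Hars2* overlap at their starts on opposite strands, and 8.42% of the words of *Hars* were shared. Shared words made up 23.6% of *Iars2*, mainly with *Rab3gap2*, and 3.99% to 9.81% of *Cars2*, *Fars2*, *Hars2*, *Nars2* and *Vars2*.

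*Lars2*, the mitochondrial leucine enzyme (chr9:123366927-123462666, plus strand), had the most counts of the 36 genes and stood apart. Its level was 498, 1070 and 1790 CPM in WT and 389, 707 and 1210 CPM in OPA1 BKO mice (log2 -0.57, SE 0.30, adjusted p = 0.138). Between 73.5% and 97.5% of its counts in a mouse were assigned to 1 transcript, which GENCODE classes as a target of nonsense-mediated decay and which is called its leading transcript here. Libraries are numbered from 1 to 16 in the labels, and each group has 2 mice in each of 1 to 8 and 9 to 16. WT mice of libraries 1 to 8 had 498 to 750 CPM and those of 9 to 16 had 1393 to 1794 CPM, and OPA1 BKO mice had 389 to 539 and 875 to 1205 CPM. In libraries 9 to 16 the OPA1 BKO values all lay under the WT values, and in libraries 1 to 8 the genotypes overlapped.

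With a term for libraries 1 to 8 against 9 to 16, added after this split was seen, *Lars2* fell by 0.56 (SE 0.095, adjusted p from edgeR 0.000266). It fell by 0.52 in libraries 1 to 8 (adjusted p = 0.0181) and by 0.59 in libraries 9 to 16 (adjusted p = 0.0305). Without the counts of the leading transcript the levels were 41.8 to 98.4 CPM in WT and 51.4 to 115 CPM in OPA1 BKO mice, and the log2 value was 0.26 (SE 0.15, adjusted p = 0.18). The difference between libraries 1 to 8 and 9 to 16 was called for 27 of 15632 genes, and *Lars2* was the only one of the 36. The noncoding genes *AY036118* and *Mir6236*, chosen after their values were seen, showed the same split. *AY036118* had 79.2 to 202 CPM in libraries 1 to 8 and 222 to 496 CPM in libraries 9 to 16. Within libraries 9 to 16, *AY036118* was also lower in OPA1 BKO mice (222 to 302 CPM) than in WT mice (393 to 496 CPM). So was *Mir6236*, with 159 to 221 against 242 to 337 CPM. Within libraries 1 to 8 the genotypes overlapped for both. Whether the fall of *Lars2* has the same source was not tested. What the library number stands for is not given in the labels.

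**Figure D3:**
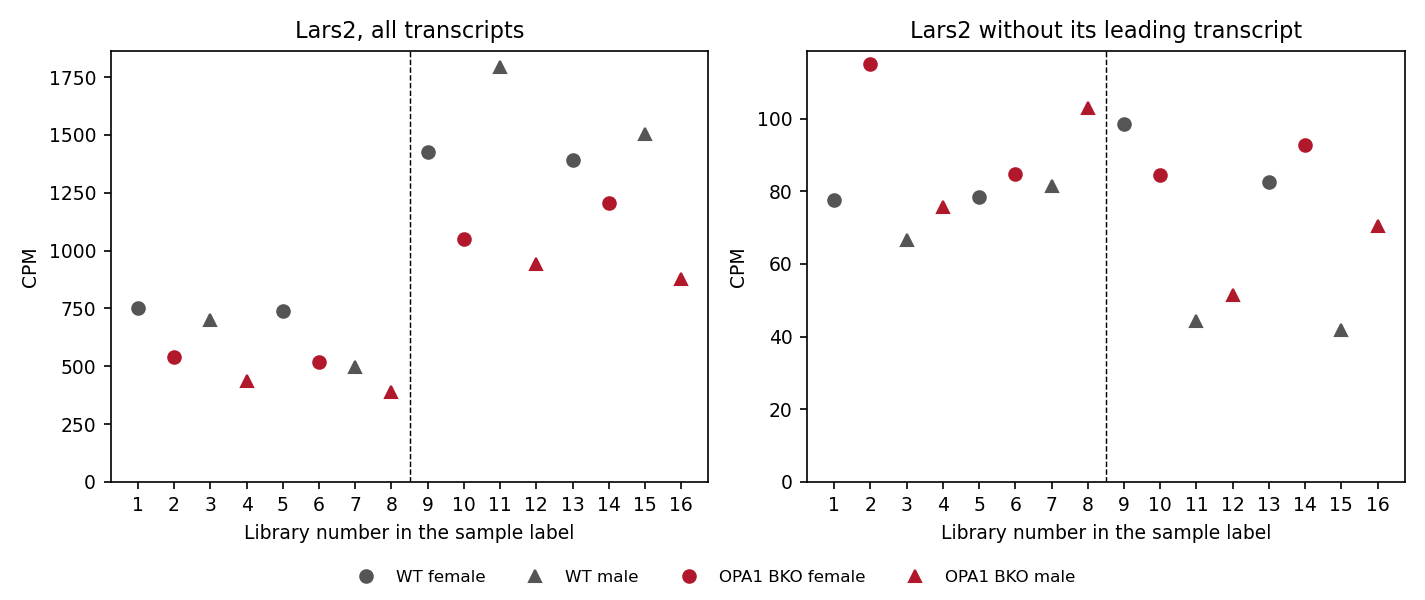
CPM of Lars2 in each mouse against its library number, with all transcripts on the left and without its leading transcript on the right. The left panel steps up between libraries 8 and 9 in both genotypes, from 389 to 750 CPM before to 875 to 1794 CPM after, and the right panel, with 41.8 to 115 CPM, does not.

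Setting the 2 genes for an amino acid side by side in each mouse, the cytosolic to mitochondrial ratio in TPM was on average higher in OPA1 BKO mice for 16 of 17 pairs over 16 amino acids, with a median difference of 0.90 on the log2 scale. These ratios are a description with no test. For proline, the log2 ratio of *Eprs* to *Pars2* was 2.30 ± 0.35 in WT and 4.22 ± 0.26 in OPA1 BKO mice (SD, n = 8), and for tryptophan that of *Wars* to *Wars2* was 2.61 ± 0.28 and 4.12 ± 0.27. For glutamate, *Eprs* to *Ears2* went from 2.10 ± 0.33 to 3.52 ± 0.25. In these 3 pairs the genotypes did not overlap, nor did they for *Aars*, *Iars*, *Sars*, *Vars* and *Yars* with their partners. In all others of the 17 pairs the genotypes overlapped. For leucine, *Lars* to *Lars2* went from -5.04 ± 0.69 to -3.81 ± 0.71 with overlap, and this pair carries the leading transcript of *Lars2*. The smallest difference was 0.24 for *Farsa* to *Fars2*, and *Mars* to *Mars2*, at -0.50, was the 1 pair with a lower ratio in OPA1 BKO mice, both with overlap.

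**Figure D4:**
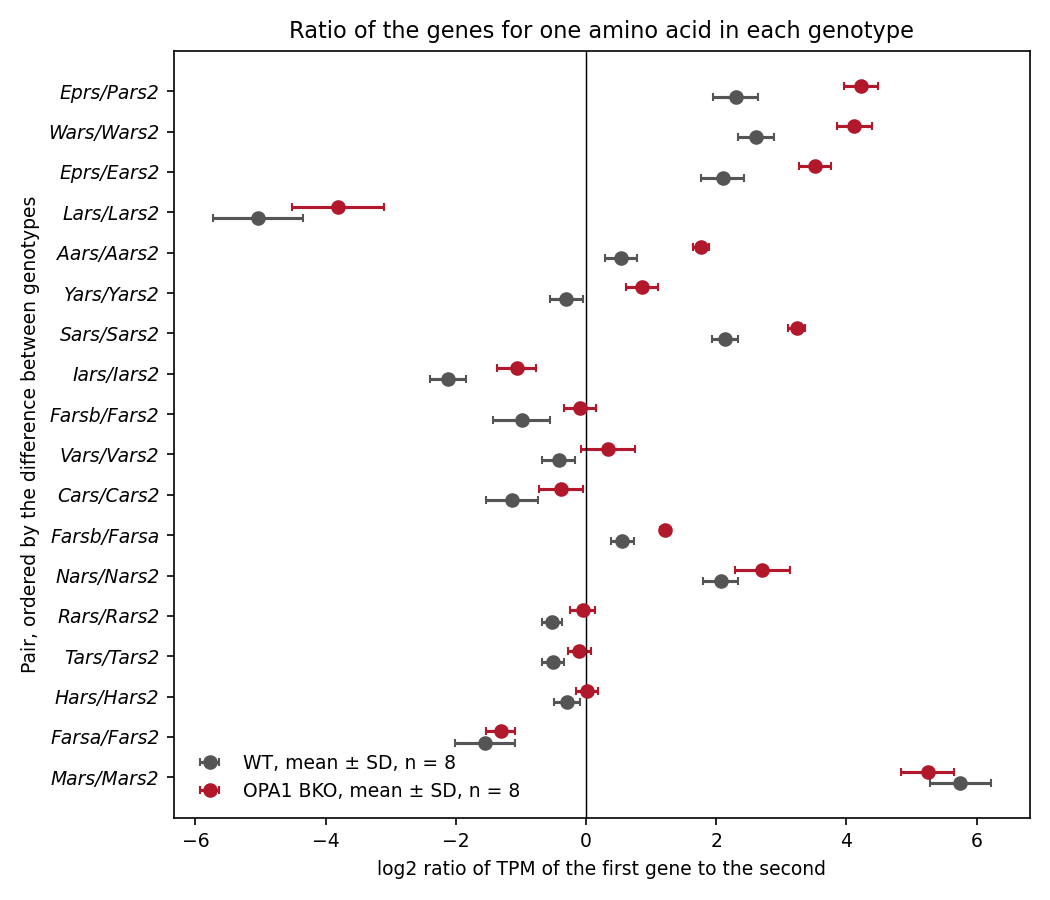
Log2 ratio of TPM within each mouse (points, mean; bars, SD; n = 8 per genotype) for the cytosolic gene over the mitochondrial gene of 1 amino acid, and for Farsb over Farsa, with OPA1 BKO in red and WT in grey. The red point lies to the right of the grey point in every pair but Mars/Mars2, where the difference was -0.50.

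Levels per transcript length did not place the cytosolic enzymes far above the mitochondrial ones in WT BAT. In TPM rescaled to nuclear genes, the median over the 20 cytosolic genes was 25.6 (from 11.5 to 82.6), and over the 15 mitochondrial genes other than *Lars2* it was 22.9 (from 1.09 to 71.0). In OPA1 BKO mice the medians were 66.0 and 26.4. With limma on log2(TPM + 0.5) on this scale, the median of all genes was itself 0.43 higher in OPA1 BKO mice. The levels of the 2 genotypes here therefore do not give the direction under TMM. *Qars*, which fell under TMM, had 64.6 TPM in WT and 67.7 TPM in OPA1 BKO mice. In only 7 of 17 pairs was the cytosolic gene the higher one in WT. Leaving *Lars2* aside, *Gars* was highest in WT at 82.6 ± 6.01 TPM (SD, n = 8), followed by *Fars2* at 71.0 ± 17.5 and *Qars* at 64.6 ± 5.13, and neighbours in this order did not differ beyond their SD. In OPA1 BKO mice *Gars*, at 198 ± 29.2, and *Sars*, at 188 ± 31.2, led the list, followed by *Eprs* at 124 ± 14.7 and *Wars* at 117 ± 23.3, where *Gars* and *Sars*, and likewise *Eprs* and *Wars*, did not differ beyond their SD. *Eprs* had been 18th of the 36 in WT, at 25.3 ± 5.21 TPM.

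The genotype effect was seen in both sexes. In females 14 cytosolic genes rose and 1 fell, against 8.96% and 9.03% of all tested genes, and in males 15 rose and 1 fell, against 17.9% and 16.9%. Among the mitochondrial genes 1 rose and 2 fell in females, and 4 rose and 2 fell in males. The male value, taken with its sign, was the larger one for 19 of 20 cytosolic genes, with *Mars* as the exception. For *Qars*, at -0.37 in females and -0.30 in males, this was a smaller fall. The male value was also the larger one for 12 of 16 mitochondrial genes, beside 50.8% of all tested genes. That share takes rising and falling genes together, and it was not computed for the genes that rose alone. The medians of the cytosolic genes were 0.52 in females and 0.85 in males. Summed over the cytosolic genes, OPA1 BKO females had 1658 to 1889 CPM and OPA1 BKO males 2142 to 2224 CPM, while WT females had 1076 to 1166 and WT males 1079 to 1175 CPM.

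No member passed the test of the interaction of genotype and sex, in which 0.115% of all tested genes were called. An unadjusted p under 0.05 was reached by 12 of the 36, beside 2051 of all 15632 tested genes. The smallest adjusted p-values among the members were 0.063 for *Iars*, 0.0693 for *Vars* and 0.0761 for *Lars*. *Iars* rose by 0.59 in females and 1.38 in males, a difference of 0.79 (SE 0.16), with 50.8 to 69.5 CPM in OPA1 BKO females and 68.0 to 82.2 CPM in OPA1 BKO males. In WT it was the females that had more, with 35.4 to 44.8 CPM against 24.8 to 33.5 CPM. *Vars* had a log2 value of 0.091 in females (SE 0.11, adjusted p = 0.635) and rose by 0.82 in males (SE 0.11, adjusted p = 7.14e-05). Of the mitochondrial genes, *Mars2* rose by 0.43 and *Wars2* by 0.42 in males, beside female values of -0.032 and -0.025, and the adjusted p of the difference was 0.291 and 0.211. Between WT males and WT females no member was called either, against 0.23% of all genes. In that contrast 9 of the 36 had an unadjusted p under 0.05, beside 2587 of all 15632 tested genes. The smallest adjusted p of a member was 0.0764, for *Iars*.

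**Figure D5:**
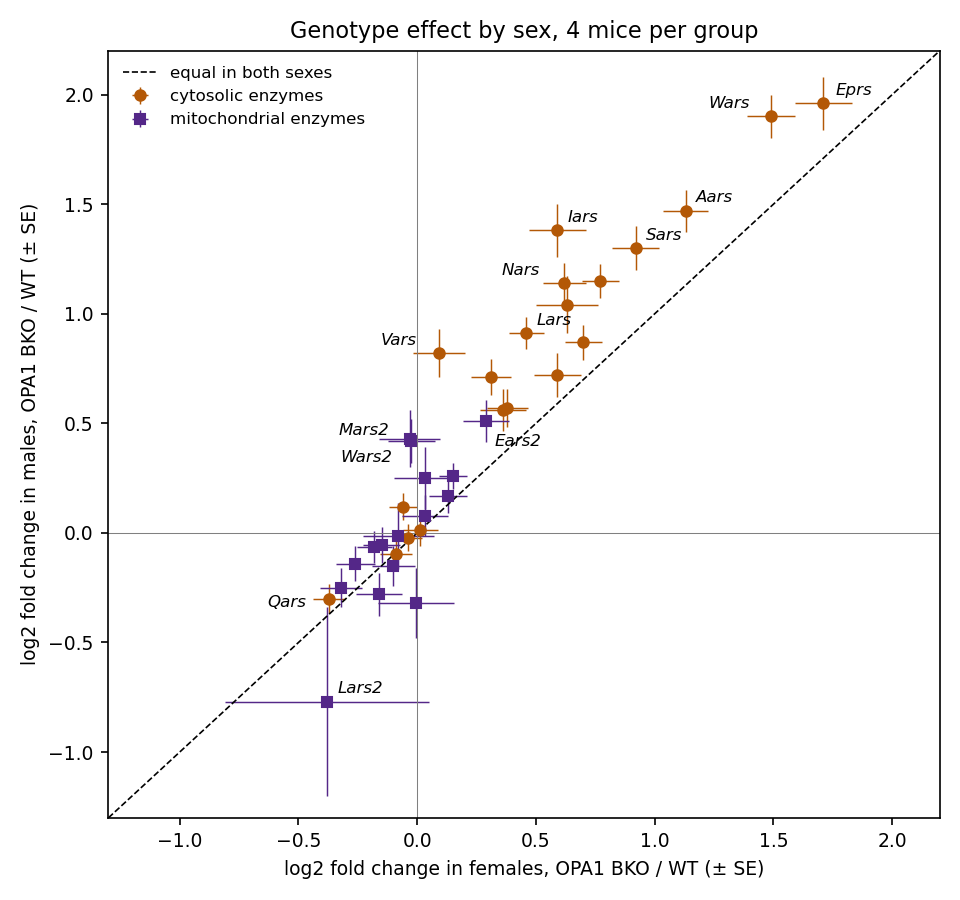
Log2 fold change in males against that in females for each gene (4 mice per group, bars show the SE), circles for cytosolic and squares for mitochondrial enzymes. The circles of the enzymes that rose lie above the dashed line of equal effects, Vars (0.091 and 0.82) and Iars (0.59 and 1.38) farthest from it, though no difference between the sexes passed the test.

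The transcript make-up was compared by the share of a gene's TPM held by its leading transcript, which could be tested for 31 of the 36 genes. No member was called, against 2.94% of the 11027 genes tested with limma. *Yars2* came nearest, with a share of 70.6% ± 3.84 (SD, n = 8) among WT mice and 79.7% ± 4.76 among OPA1 BKO mice (adjusted p = 0.0501 with limma), and on the untransformed share its adjusted p was 0.0385. The leading transcript of *Wars* held 62.5% ± 16.1 in WT and 81.0% ± 6.88 in OPA1 BKO mice (adjusted p = 0.0852 with limma). That of *Eprs* held 96.7% ± 0.758 and 97.1% ± 0.779.

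Of 7 synthetase-related and proofreading genes, 1 rose and 3 fell, beside 20.8% and 20.2% of all tested genes. *Trnt1*, which adds the CCA end to tRNAs, rose by 0.24 (adjusted p = 0.0351). *Pstk*, which phosphorylates seryl-tRNA on the way to selenocysteine, fell by 0.54 (adjusted p = 0.000377), *Dtd1*, a D-aminoacyl-tRNA deacylase, by 0.35 (adjusted p = 0.00342) and *Prorsd1*, related to a proline editing domain, by 0.28 (adjusted p = 0.0421). *Aarsd1*, *Tarsl2* and *Sepsecs* did not pass the test. *Pstk* had 20.5, 26.5 and 31.3 CPM in WT and 14.4, 17.4 and 21.9 CPM in OPA1 BKO mice, with overlap.

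Mitochondria have no glutaminyl-tRNA synthetase of their own and form glutaminyl-tRNA with the amidotransferase GatCAB. Of its subunit genes *Qrsl1* rose by 0.36 (adjusted p = 0.000165) with no overlap between genotypes, *Gatb* fell by 0.25 (adjusted p = 0.00131) and *Gatc* had a log2 value of 0.086 (adjusted p = 0.342). *Mtfmt*, which formylates the initiator methionyl-tRNA, fell by 0.30 (adjusted p = 0.0197). Of 9 mitochondrial translation factors 3 rose (*Mrrf* 0.24, *Mtif2* 0.21, *Gfm1* 0.18), 3 fell (*Tufm* -0.52, *Tsfm* -0.27, *Mtif3* -0.20) and 3 did not pass, beside the same 20.8% and 20.2% of all tested genes. *Tufm*, the elongation factor that brings charged tRNA to the mitochondrial ribosome, had 243, 277 and 310 CPM in WT and 174, 190 and 217 CPM in OPA1 BKO mice (SE 0.057, adjusted p = 4.17e-06), with no overlap. Of 7 cytosolic elongation and release factors 0 were called by edgeR and 2 by DESeq2, and the log2 values ran from -0.075 to 0.24. In edgeR 2 of them had an unadjusted p under 0.05, beside 7650 of all 15632 tested genes.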

How the data were processed

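RNA from BAT of 16 mice was sequenced after a stranded polyA library preparation. Per the labels and the paper, the authors quantified transcripts with kallisto 0.45.0 (mm10), and for each mouse deposited an estimated count and a TPM per transcript. That estimated count, as deposited, carries no scaling between mice and may be a fraction. The deposited TPM is scaled to the same sum in each mouse. The paper also describes a genome alignment, which was not used here.

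Transcripts were joined to genes through GENCODE M21 (133284 of 135308 matched, 51060 genes). Transcripts without a match, under 1% of the counts, were dropped. Gene sums of the estimated counts were rounded, filtered by filterByExpr (minimum count 10, minimum total 15) and tested in edgeR 4.0.16 (R 4.3.3) with TMM normalization, a prior count of 0.125 and a term for sex. Effects within a sex and the interaction came from a model with 1 mean per group. Benjamini-Hochberg adjustment covered the 15632 genes tested, and calls were made under 0.05. Shares of leading transcripts were tested with limma 3.58.1 on the arcsine square root. TPM levels were rescaled to nuclear genes.

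Depth was 13607283 to 23114534 estimated counts per mouse, and members had 85 to 28154 counts. A gene without counts may be present at up to 3 counts, which covers counting error only, since PCR copies are not independent molecules. The steps were tested on simulated counts. The alternatives included DESeq2 1.42.0, other scalings, filters and TPM with limma, and leaving out each mouse. The members, lists and tests were chosen with earlier results of these data known. Each member is given with its log2 fold change, with values for the 6 cytosolic genes of largest and 3 of lowest log2 fold change, the 3 mitochondrial genes of largest and 3 of lowest, *Farsa*, *Farsb* and any gene called by sex or share, and other genes where a statement rests on them. Fibroblast, endothelial, lymphocyte, macrophage, muscle and brown adipocyte markers were fixed lists. The mice were assigned by genotype and sex from the labels.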

Additional observations from a re-analysis of the deposited data

Results flagged for a closer look

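Over the 36 genes and 4 groups of 4 mice, 144 groups were examined for a mouse far from the other 3 of its group, by Dixon's ratio of the gap to the range, and 6 passed its 95% critical value. About 1 in 20 groups would pass by chance. WT female 4 had 33.2 CPM of *Farsb*, below the 45.3 to 46.0 CPM of the other WT females. WT female 2 had 71.7 CPM of *Kars*, below 75.0 to 75.4 CPM. OPA1 BKO male 3 was the highest of its group for *Lars* with 59.9 CPM (others 54.8 to 55.6), for *Yars* with 73.1 CPM (others 67.5 to 68.2) and for *Sars2* with 22.6 CPM (others 18.1 to 18.8). OPA1 BKO male 1 had 197 CPM of *Wars*, above 181 to 184 CPM. The calls of these genes were the same without each of these mice.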

How the results depend on the processing

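The counts of members called kept to 15 cytosolic genes higher and 1 lower, and 3 mitochondrial genes higher and 3 lower, with DESeq2, with DESeq2 size factors and with a mean TPM of at least 1, and the side of the threshold was kept by each of the 36 genes in these 3 fits. The scaling between mice had the largest effect. The mitochondrial genome took a smaller share of the counts in OPA1 BKO mice, so scaling to totals that include it raises all other genes together. With library size alone, where the median of all genes was 0.57, 0 cytosolic genes were lower, 15 mitochondrial genes were higher and 0 lower, 10869 of all genes were higher and 373 lower, and the medians were 1.23 for cytosolic and 0.48 for mitochondrial genes. The sign turned for *Hars* (0.52), *Mars* (0.47), *Qars* (0.22), *Cars2* (0.51), *Fars2* (0.34), *Hars2* (0.27), *Iars2* (0.43), *Pars2* (0.39), *Rars2* (0.43), *Vars2* (0.36) and *Yars2* (0.46). Within females and within males alike, 0 cytosolic genes were then lower and 14 mitochondrial genes were higher and 0 lower. With library size without the mitochondrial genome (median of all genes 0.22), 0 cytosolic genes were lower, 7 mitochondrial genes were higher and 0 lower, 6076 of all genes were higher and 1350 lower, the medians were 0.88 and 0.13, and the sign turned for *Hars* (0.18), *Vars2* (0.01), *Mars* (0.12), *Cars2* (0.16), *Iars2* (0.083), *Pars2* (0.038), *Rars2* (0.083) and *Yars2* (0.11), of which *Hars* was called. Scaled to *Tbp* (median of all genes 0.11), 0 mitochondrial genes were lower, 1642 of all genes were lower, the medians were 0.77 and 0.025, and the sign turned for *Hars* (0.069), *Mars* (0.015) and *Cars2* (0.05), none called. Of the genes called, 96.7%, 81.8% and 68.9% were higher under these 3 scalings, against 50.8% with a mean TPM of at least 1. The difference between the 2 medians was 0.75, 0.75 and 0.74.

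With limma on log2(TPM + 0.5) (median of all genes 0.87), 0 cytosolic genes were lower, 15 mitochondrial genes were higher and 0 lower, 11871 of all genes were higher and 103 lower, and the medians were 1.57 and 0.84. *Hars* (0.91), *Mars* (0.64), *Qars* (0.55), *Cars2* (0.84), *Fars2* (0.72), *Hars2* (0.61), *Iars2* (0.83), *Pars2* (0.78), *Rars2* (0.93), *Vars2* (0.67), *Yars2* (0.76) and, not called, *Lars2* (0.41) turned. With log2(TPM + 0.1) (median of all genes 0.93) the counts were 0, 15 and 0 for these lists and 11852 higher and 103 lower for all genes, the medians were 1.61 and 0.90, and the same 12 genes turned, *Hars* to 0.92, *Mars* to 0.65, *Qars* to 0.55, *Cars2* to 0.85, *Fars2* to 0.72, *Hars2* to 0.62, *Iars2* to 0.84, *Pars2* to 0.86, *Rars2* to 0.94, *Vars2* to 0.69, *Yars2* to 0.77 and *Lars2* to 0.41. With log2(TPM + 0.5) without the mitochondrial genome (median of all genes 0.43) the counts were 0, 12 and 0 and, for all genes, 8742 and 445, the medians were 1.12 and 0.41, and *Hars* (0.44), *Qars* (0.068), *Cars2* (0.37), *Fars2* (0.24), *Hars2* (0.13), *Iars2* (0.35), *Pars2* (0.36), *Rars2* (0.45), *Vars2* (0.20), *Yars2* (0.29) and *Mars* (0.16) turned. Without a filter on low counts (31074 genes tested) 1 mitochondrial gene was lower, and *Hars* (0.019) and *Cars2* (0.0036), not called, turned. With counts scaled from TPM 2 cytosolic genes were lower, since *Mars* was then called, and *Rars2* (0.005), not called, turned; the cause was not tested.

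Leaving out each mouse in turn kept 15 cytosolic genes higher and 1 lower, while 2 to 4 mitochondrial genes were higher and 3 to 4 lower, and 2910 to 3221 of all genes were higher and 2895 to 3274 lower. The medians were 0.63 to 0.70 and -0.12 to -0.044, and their difference 0.71 to 0.78. *Kars*, never called, turned without 4 of the mice, to -0.012 at the lowest. *Rars2* was called lower without WT female 2, WT male 3 or OPA1 BKO male 4, and *Mars2* and *Wars2* were called higher without OPA1 BKO female 4. A changed share of the leading transcript was called for 0 to 1 members, the 1 without WT female 4, WT male 4 or OPA1 BKO female 1, and for 1 member, *Yars2*, on the untransformed share.

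Chosen after seeing the data, the fit of libraries 1 to 8 alone called 0 mitochondrial genes higher, and 1877 of all genes higher and 1977 lower. That of libraries 9 to 16 called 0 cytosolic genes lower, 1 mitochondrial gene higher and 1 lower, and 1187 and 1136 of all genes. The fit without mice above 1000 CPM of muscle markers called 1 mitochondrial gene higher and 1 lower, and 1816 and 1627 of all genes, with medians of 0.75 and 0.018. Each of these 3 fits used 8 mice, and *Vars* was not called in any of them. Among genes not called, the sign turned for *Kars*, *Cars2* and *Nars2* in libraries 1 to 8 and for *Hars*, *Kars* and *Cars2* without the mice of high muscle signal. The adjusted p of *Lars2* ranged from 0.0181 to 0.926 over the alternatives other than the term for libraries 1 to 8 against 9 to 16. No paired analysis was possible because the labels carry no pairs, litters or replicate numbers within a group, and the numbers of the mice here are names in accession order. The running library number was used only to set 1 to 8 against 9 to 16. Depth allowed a test of each member, the lowest count of one being 85, and fractional counts between overlapping genes or near copies limit the values of the 7 genes with the most shared words, 8.42% to 23.6%, which are *Aars*, *Iars*, *Farsb*, *Hars*, *Cars2*, *Fars2* and *Iars2*.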
